A study of Mus musculus with 2 samples.

Results

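The genes described here are 10 genes known to respond to low oxygen: Adm, Vegfa, Bnip3, Hif1a, Slc2a1, Pdk1, Ldha, Pgk1, Egln3 and Car9. They were taken as every probe set that the platform annotation assigns to exactly 1 of these genes, which gave 23 of the 45101 probe sets and 10 of 18193 genes. Their RNA was measured in E18.5 mouse palate, late in gestation, with 1 Affymetrix array of palate labelled null for both Myf5 and MyoD (gene symbol Myod1) on the BALB/c background, called the mutant-labelled array, and 1 array of wild-type BALB/c palate. Myf5 and MyoD are transcription factors that start the skeletal muscle programme in precursor cells, and the series concerns the role of skeletal muscle in the developing palate. Whether a sample held 1 fetus or several is not stated in the labels, and neither is what each null allele lacks. With 1 array for each genotype there is no replicate error and no test, and the differences given describe these arrays only.

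Cells sense oxygen through prolyl hydroxylases, which mark the alpha subunit of hypoxia-inducible factor (HIF) for destruction while oxygen is present. When oxygen is low the alpha subunit is kept, pairs with Arnt and binds a short DNA core at its target genes. Those targets bring in vessels and widen them, move glucose into the cell, run glycolysis, hold pyruvate back from mitochondria and remove mitochondria. HIF-1 alpha is controlled mainly as a protein, so the Hif1a transcript alone does not report its activity.

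The HIF-binding core is ACGTG or GCGTG. Both forms were searched on both strands, so that CACGT and CACGC mark a core on the opposite strand, and the palindrome CACGTG, which is also the E-box of other factors, counts once on each strand. Promoter windows from RefSeq (build GRCm38.p6) run from 250 bases before a gene's start to 50 bases after it. All 10 genes were matched, with 13 windows, of which 11 held at least 1 core (84.6%), against 43.8% of all 32851 windows in the table. ACGTG alone was in 61.5% of the 13 windows and in 19.6% of all. The 11 windows with a core held from 54.7% to 71.7% G and C. The shares were not matched for base composition, so they do not separate the core from the make-up of the windows. The genes were listed for a known response to low oxygen, so a high share with the core is no test of the list. Vegfa, Pdk1 and Ldha gave 2 windows each. Each of the 4 windows below is written 5′ to 3′ on the gene's own strand with the cores in capitals. Adm and Bnip3 are shown because they had the highest ratios, Vegfa because it had the lowest, and Ldha because its window held the most cores.
Adm: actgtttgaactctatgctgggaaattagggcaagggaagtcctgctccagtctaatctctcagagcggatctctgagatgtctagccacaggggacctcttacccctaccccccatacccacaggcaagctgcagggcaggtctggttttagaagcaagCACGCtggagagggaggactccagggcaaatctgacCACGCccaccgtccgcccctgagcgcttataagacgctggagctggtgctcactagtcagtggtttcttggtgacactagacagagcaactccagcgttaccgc
Bnip3: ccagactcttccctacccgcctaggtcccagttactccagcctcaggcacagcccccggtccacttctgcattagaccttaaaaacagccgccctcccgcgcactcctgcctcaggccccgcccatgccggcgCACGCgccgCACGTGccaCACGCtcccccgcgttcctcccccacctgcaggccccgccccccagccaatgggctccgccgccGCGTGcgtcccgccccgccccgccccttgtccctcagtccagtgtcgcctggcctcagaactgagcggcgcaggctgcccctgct
Vegfa: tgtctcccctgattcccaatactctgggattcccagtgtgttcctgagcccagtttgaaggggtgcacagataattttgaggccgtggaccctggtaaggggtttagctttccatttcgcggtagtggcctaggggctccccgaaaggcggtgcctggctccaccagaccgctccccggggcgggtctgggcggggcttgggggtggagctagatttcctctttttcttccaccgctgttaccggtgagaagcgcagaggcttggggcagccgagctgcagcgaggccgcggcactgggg
Ldha: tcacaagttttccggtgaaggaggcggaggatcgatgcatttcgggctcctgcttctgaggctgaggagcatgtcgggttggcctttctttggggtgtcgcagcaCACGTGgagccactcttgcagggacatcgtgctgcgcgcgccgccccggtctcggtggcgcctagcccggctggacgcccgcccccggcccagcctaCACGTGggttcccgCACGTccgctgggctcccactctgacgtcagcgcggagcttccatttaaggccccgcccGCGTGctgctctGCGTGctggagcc
The Adm window (chr7:110627407-110627706, plus strand) held 2 cores, both GCGTG on the opposite strand, beginning 90 and 54 bases before the start. The Bnip3 window (chr7:138909457-138909756, minus strand) held 5 cores, of which a pair overlapped in 1 CACGTG. No core was found in the Vegfa window (chr17:46032328-46032627, minus strand), and 2 were found in a window at a second, internal Vegfa start. The Ldha window (chr7:46845554-46845853, plus strand) held 7 cores at 5 distinct sites, because 2 of the sites were CACGTG and counted on each strand. A link between the number of cores in these windows and the log2 ratios of the genes was not tested. A match of 5 bases describes the sequence and is not a measured binding site.

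The checks of the labels come first, because they limit how the genotype can be read. Myod1 had a signal of 1663 on the mutant-labelled array and 1938 on the wild-type array in its measured probe set. Myf5 had 531 on the mutant-labelled array and 517 on the wild-type array, too dim to count as measured. Neither targeted transcript separated the samples, and the labels do not show where their probes lie relative to the altered parts of the genes. Of 12 palatal mesenchyme markers 10 were measured, with a median log2 ratio of -0.03, and Osr1 and Osr2 were too dim to count. The measured markers were split, with 5 above 0 and 5 below, from -1.89 for Msx1 to 0.74 for Col1a1. All 12 skeletal muscle markers were above the floor on the mutant-labelled array, although their summed signal was 116137 there and 216054 in wild type. The sample is therefore named by its label only.

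Ratios are the mutant-labelled array over the wild-type array, on the log2 scale of scaled MAS5 signals, with signals under 287 set to that floor. A gene was taken as measured if either array reached 658, and its brightest probe set represents it. All 10 genes were measured, through 19 of their 23 probe sets. The other 4 probe sets, 1 each of Adm, Vegfa, Hif1a and Pdk1, were below the floor on both arrays and gave no ratio. Across all genes, log2 ratios from different measured probe sets of a shared gene varied with a pooled SD of 0.51 (10190 probe sets, 4030 genes), the only error these data allow. It covers probe and transcript differences and not differences between animals, dissections or hybridisations.

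**Figure D1:**
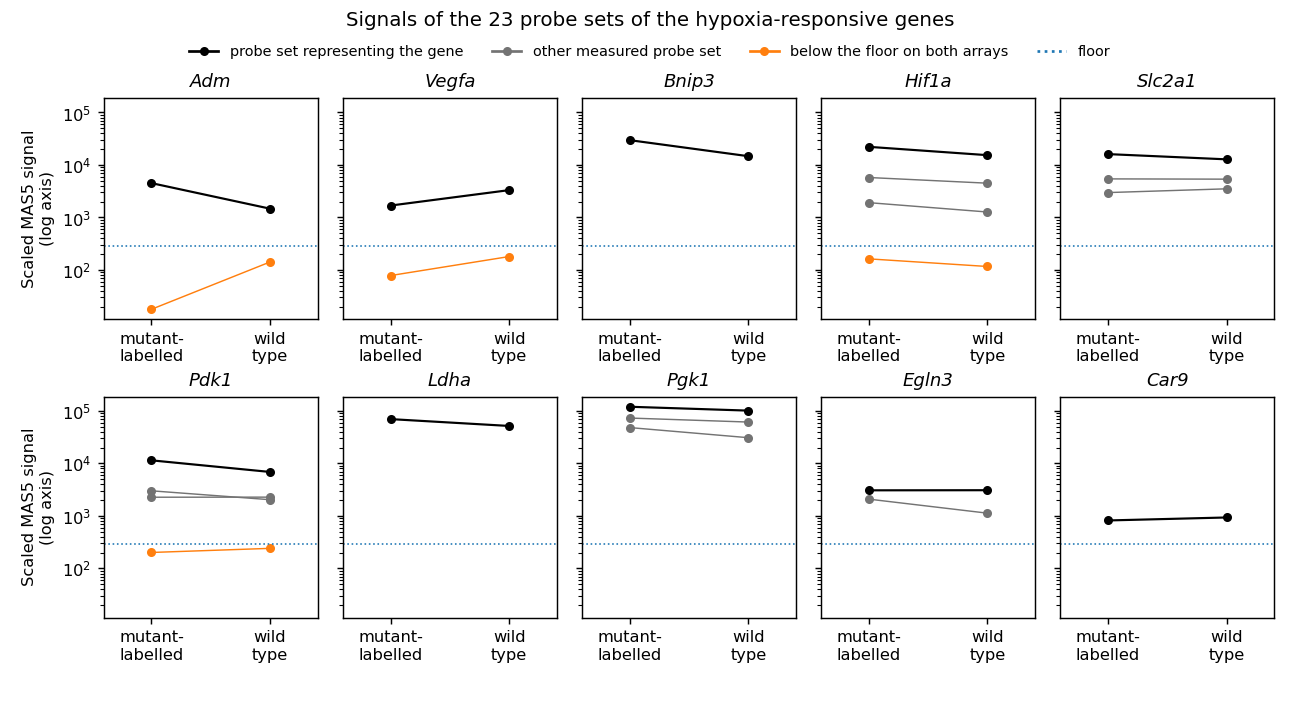
Scaled MAS5 signal (log axis) of every probe set of the 10 hypoxia-responsive genes on the mutant-labelled array (left point) and the wild-type array (right point), with 1 line for each probe set. Adm, Bnip3 and Pdk1 lines slope towards a higher signal on the mutant-labelled array in the probe set that represents the gene, the Vegfa line slopes the other way, and the lines of the 4 dim probe sets lie under the dotted floor of 287.

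Among the 10 genes, Adm and Bnip3 were at least 2-fold higher on the mutant-labelled array and none was at least 2-fold lower. Of all 11238 measured genes, 3.51% were at least 2-fold higher and 4.22% at least 2-fold lower. The median log2 ratio of the 10 genes was 0.38, beside 0.07 over all measured genes, and 7 of the 10 were above 0, as were 56.3% of all. These shares over all genes were not matched for signal, and 9 of the 10 genes reached 1479, the 75th percentile, on at least 1 array. With the filter at that percentile the medians were 0.43 for the 9 genes left and 0.10 for all. With quantile normalization they were 0.19 for the 10 genes and 0.02 for all. The ratios ran from -0.98 for Vegfa to 1.62 for Adm, and 5 of the 10 differed by at least the SD between probe sets of one gene, as did 29.6% of all genes. The list was chosen with earlier results of these arrays known, so its counts describe the genes and are no test of the list. Adm and Bnip3 were both past 2-fold under 8 of the 12 alternatives in scaling, floor, probe sets and filter. Bnip3 fell short of 2-fold under 3 other scalings, and Adm could not be measured once probe sets of shared sequence were left out.

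Adrenomedullin, encoded by Adm, is a secreted peptide that relaxes and stabilises vessels and is needed for the lymphatic and blood vessels of the mouse embryo. Adm had a signal of 4515 on the mutant-labelled array and 1472 on the wild-type array, a log2 ratio of 1.62 or 3.07-fold higher. That placed it 51st from the top among all measured genes, with 0.445% of genes higher. The value comes from 1 probe set, whose suffix _x_at marks probes that may also match other transcripts and for which the annotation lists no accession. Of all measured probe sets with that suffix, 3.82% were at least 2-fold higher, beside 3.68% of all measured probe sets. These shares do not show whether the Adm probe set matched other transcripts. The other Adm probe set, the one tied to the gene's RefSeq transcript, gave 17.9 on the mutant-labelled array and 142 on the wild-type array. Both values are under the floor, so that probe set gives no ratio, and the higher Adm signal has no second probe set behind it.

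Vascular endothelial growth factor A, encoded by Vegfa, is the main secreted signal for the growth of new vessels. Vegfa had a signal of 1688 on the mutant-labelled array and 3320 on the wild-type array, a log2 ratio of -0.98 or 1.97-fold lower. It was the lowest of the 10 genes, and 4.48% of all measured genes were lower still. A second Vegfa probe set was under the floor on both arrays, at 78.4 on the mutant-labelled array and 180 in wild type. Vegfa therefore lay on the opposite side of 0 from Adm, the other secreted vascular factor among the 10, and each rests on 1 measured probe set. Its ratio was just short of 2-fold, and it was at least 2-fold lower under 3 of 4 other scalings, with a log2 ratio of -1.05 with the deposited scaling, just past the line with quantile normalization and -1.12 with scaling on the ratio of reference genes.

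None of the receptor genes named here differed by 2-fold. The adrenomedullin system, a list of related peptides, receptor subunits and processing enzymes, had 7 measured genes with a median log2 ratio of 0.16, none at least 2-fold higher and 1 at least 2-fold lower. Calcrl, the receptor that binds adrenomedullin, had 1978 on the mutant-labelled array and 1703 in wild type, a log2 ratio of 0.22. Its partner subunits Ramp1, Ramp2 and Ramp3, which set its choice of peptide, had log2 ratios of -0.28, 0.20 and 0.22. The gene past 2-fold was Pam, the enzyme that adds the terminal amide that active adrenomedullin carries, with 328 on the mutant-labelled array and 1124 in wild type, 3.42-fold lower by 1 probe set. In the VEGF system 8 genes were measured with a median of 0.14 and none passed 2-fold. The receptors Flt1, Kdr and Flt4 had log2 ratios of 0.14, -0.06 and -0.18. Vegfd had a log2 ratio of 0.66, Vegfb 0.65, the co-receptor Nrp1 0.65 and Vegfc -0.21, but the other measured probe sets had medians of -0.10 for Vegfd, 0.01 for Nrp1 and 0.15 for Vegfc. Endothelial markers were lower beside these values: 8 of 10 were below 0, with a median of -0.57, and their summed signal was 11583 on the mutant-labelled array and 16409 in wild type. None of the 10 was under the floor on both arrays, and their part in the Adm and Vegfa values was not tested. In whole tissue, fewer cells of a type and less RNA in each cell cannot be told apart.

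Hif1a, the oxygen-regulated alpha subunit of HIF-1, was modestly higher in each measured probe set. The brightest gave 22155 on the mutant-labelled array and 15379 in wild type, a log2 ratio of 0.53, and a second gave 5772 on the mutant-labelled array and 4501 in wild type (0.36). The remaining measured one gave 1917 on the mutant-labelled array and 1272 in wild type (0.59). The 3 probe sets differed among themselves with an SD of 0.12, and their mean log2 ratio of 0.49 was slightly under the pooled SD of 0.51. Hif1a and Pgk1 were the 2 of 5 genes with several measured probe sets in which all had the same sign, against 50.7% of such genes in all. Hif1a was above 0 under all 12 alternatives, from 0.37 to 0.75.

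Egln3 encodes a prolyl hydroxylase that marks HIF alpha subunits and is itself a HIF target, so that it acts as a brake on the response. Its brightest probe set was flat, with 3072 on the mutant-labelled array and 3087 in wild type, a log2 ratio of -0.01. Its other probe set gave 2087 on the mutant-labelled array and 1128 in wild type, a log2 ratio of 0.89. Both carry the same accession in the annotation, and their SD was 0.63, beside the pooled SD of 0.51. The sign for Egln3 turned under 2 of 12 alternatives, so that no direction can be given.

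Other genes of the HIF machinery, a list of subunits, oxygen sensors and cofactors without Hif1a and Egln3, had a median log2 ratio of 0.18 over 14 measured genes, of which 11 were above 0, 2 at least 2-fold higher and none at least 2-fold lower. Siah1a, a ubiquitin ligase that removes prolyl hydroxylases, had 16257 on the mutant-labelled array and 6559 in wild type, 2.48-fold higher, although its near-identical copy Siah1b may share its probes and its other measured probe sets had a median log2 ratio of 0.44. P4htm, a membrane-bound prolyl hydroxylase, was 2.21-fold higher, with 0.46 in its other probe set. Hif1an, the asparaginyl hydroxylase that blocks the HIF activation domain, had a log2 ratio of 0.71. Hif3a, which in some forms restrains the HIF response, went the other way at -0.59, with 0.04 in its other probe set.

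**Figure D2:**
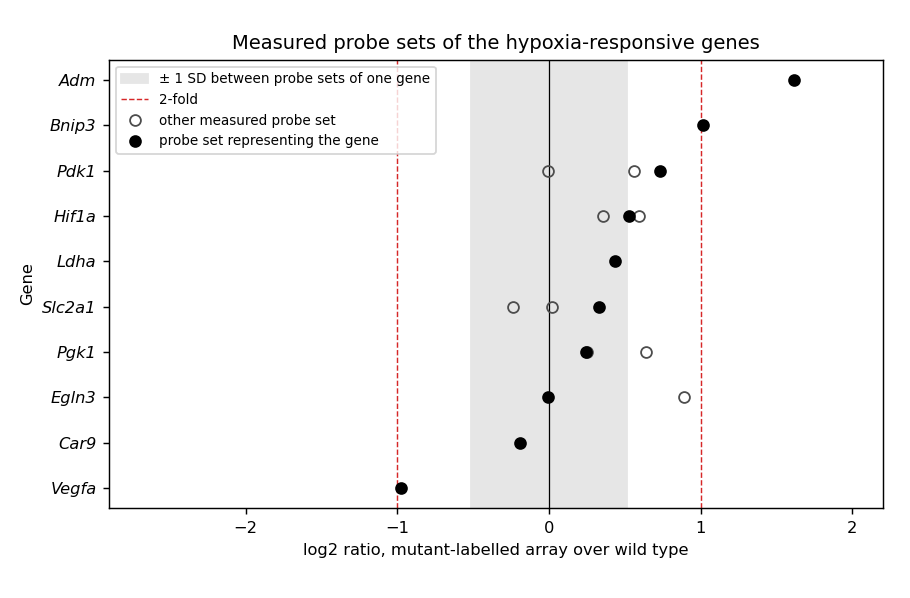
Log2 ratio (mutant-labelled array over wild type) of the 19 measured probe sets of the hypoxia-responsive genes, with filled points for the probe set that represents a gene, open points for its others, a grey band of 1 SD between probe sets of one gene (0.51) and dashed lines at 2-fold. Adm (1.62) stands beyond the 2-fold line, Bnip3 (1.01) and Vegfa (-0.98) lie close to one of these lines, and the points of Egln3 (-0.01 and 0.89), Pdk1 and Slc2a1 are spread.

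Slc2a1, Ldha and Pgk1 carry glucose through glycolysis to lactate. Slc2a1 encodes the glucose transporter GLUT1, and its 3 probe sets straddled 0. The brightest had 16107 on the mutant-labelled array and 12802 in wild type (log2 ratio 0.33), and a second had 5434 on the mutant-labelled array and 5370 in wild type (0.02). The dimmest had 2982 on the mutant-labelled array and 3516 in wild type (-0.24). The mean over the probe sets was 0.04 with an SD of 0.28, so Slc2a1 did not differ beyond the spread of its own probe sets.

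Pgk1 encodes phosphoglycerate kinase, which makes ATP in glycolysis. Its brightest probe set had 119862 on the mutant-labelled array and 101187 in wild type, a log2 ratio of 0.24. A second had 73045 on the mutant-labelled array and 61280 in wild type (0.25), and the dimmest had 48102 on the mutant-labelled array and 30872 in wild type (0.64). All 3 were above 0, at a mean of 0.38 and an SD of 0.23, but the brightest gave 0.00 under quantile normalization. Pgk1 lies on the X chromosome, and the samples differed in sex-linked transcripts: Xist, expressed from the inactive X, had 16947 on the mutant-labelled array and 33812 in wild type in its brightest probe set, and the Y-linked Eif2s3y had 2794 on the mutant-labelled array and 10.8 in wild type. The mutant-labelled array had signal for both transcripts. With 1 array for each genotype, the difference in sex-linked transcripts cannot be told apart from genotype for any gene. Its part in the Pgk1 value was not tested.

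Ldha encodes the lactate dehydrogenase subunit that turns pyruvate into lactate. It had 69711 on the mutant-labelled array and 51653 in wild type by its 1 probe set, a log2 ratio of 0.43 that is within the SD between probe sets of one gene. Ldha was above 0 under all 12 alternatives, from 0.21 to 0.65.

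The rest of glycolysis and lactate handling did not share a direction. Of 20 measured genes 9 were above 0 and 11 below, 1 was at least 2-fold higher and 2 at least 2-fold lower, and the median log2 ratio of -0.04 turned to 0.18 with scaling on the signal of reference genes and to 0.01 with the mean over measured probe sets. Eno2, the enolase of neurons, had 5387 on the mutant-labelled array and 2384 in wild type, 2.26-fold higher. Pgam2, the muscle phosphoglycerate mutase, had 1114 on the mutant-labelled array and 3370 in wild type, 3.02-fold lower, and Eno3, the muscle enolase, had a log2 ratio of -0.84. Slc16a3, a lactate exporter of glycolytic muscle and a HIF target, had 191 on the mutant-labelled array, under the floor, and 759 in wild type, at least 2.65-fold lower. Cell markers moved alongside: all 10 neuron markers were above 0, with a median of 1.05 and summed signals of 126392 on the mutant-labelled array and 57815 in wild type, and all 12 skeletal muscle markers were below 0, with a median of -1.03. Oral epithelium markers had 6 of 8 below 0, a median of -0.64 and summed signals of 99376 on the mutant-labelled array and 130529 in wild type. No marker of these lists was under the floor on both arrays. Their part in the values of the hypoxia-responsive genes was not tested.

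Pdk1 encodes a kinase that switches off pyruvate dehydrogenase and so keeps pyruvate out of mitochondria. Its brightest probe set had 11439 on the mutant-labelled array and 6874 in wild type, a log2 ratio of 0.73 or 1.66-fold higher. A second gave 3007 on the mutant-labelled array and 2036 in wild type (0.56). Another gave 2270 on the mutant-labelled array and 2278 in wild type (-0.01), and the last was under the floor on both arrays. Both higher probe sets derive from the same accession and the flat one from another, and the mean over the 3 measured probe sets was 0.43 with an SD of 0.39. Pdk1 was above 0 under all 12 alternatives, from 0.43 to 0.95. The other kinases, phosphatases and subunits around pyruvate dehydrogenase had a median of 0.16 over 9 measured genes, and none passed 2-fold. Mpc1, a subunit of the mitochondrial pyruvate carrier, had a log2 ratio of 0.66, Dld, a shared dehydrogenase subunit, 0.30, Pdk4, the kinase linked to fasting, -0.40 and Pdhb, a catalytic subunit, -0.39.

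Bnip3 encodes a protein of the outer mitochondrial membrane that draws mitochondria into autophagy. It had 29693 on the mutant-labelled array and 14703 in wild type by its only probe set, a log2 ratio of 1.01 or 2.02-fold higher, with 3.37% of all measured genes higher. The gene sat close to the 2-fold line: its ratio ran from 0.86 to 1.23 over 12 alternatives, and it was 0.94 with the deposited scaling, 0.86 with quantile normalization and 0.87 with scaling on the ratio of reference genes. Among 7 other measured mitophagy genes none was at least 2-fold higher and 1 was at least 2-fold lower, with a median of 0.06. That gene was Fkbp8, an anchor protein of the mitochondrial surface, with 1198 on the mutant-labelled array and 3446 in wild type, 2.88-fold lower by 1 probe set. Fundc1, a mitophagy receptor that acts in hypoxia, had a log2 ratio of 0.51 and the autophagy receptor Tax1bp1 0.43. Pink1, the kinase that flags damaged mitochondria, had 0.43 with -0.41 in its other probe set.

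Car9 encodes a carbonic anhydrase on the cell surface that helps cells export acid and is widely used as a hypoxia marker in tumours. It had a signal of 820 on the mutant-labelled array and 934 in wild type, not far above the level for a measured gene. The log2 ratio of -0.19 is within the SD between probe sets of one gene, turned to 0.03 with scaling on the signal of reference genes, and had no second probe set. Of the other 15 carbonic anhydrases 7 were measured, with 2 at least 2-fold higher, 1 at least 2-fold lower and a median of -0.09. Car8, a member without catalytic activity, had 802 on the mutant-labelled array and 332 in wild type, 2.41-fold higher, and Car6, the secreted form of saliva, had 14710 on the mutant-labelled array and 6598 in wild type, 2.23-fold higher. Car7, a cytosolic form of nerve and muscle, was 3.69-fold lower (764 on the mutant-labelled array and 2817 in wild type), and Car13, another cytosolic form, had a log2 ratio of 0.63.

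**Figure D3:**
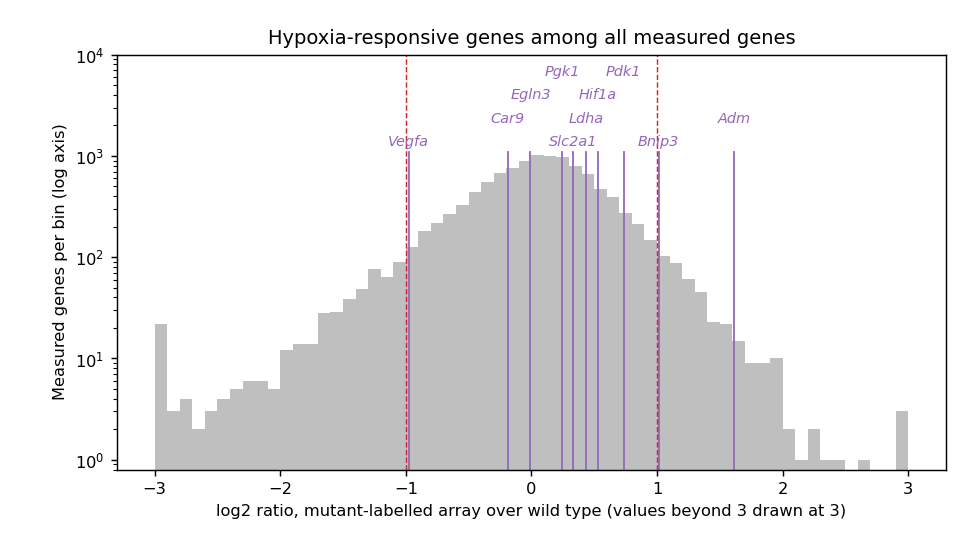
Histogram of the log2 ratios (mutant-labelled array over wild type) of all 11238 measured genes, with the count on a log axis, dashed lines at 2-fold and a purple line for each hypoxia-responsive gene. Adm lies in the upper tail, where 0.445% of genes were higher, and the other genes lie in the body of the distribution or at its shoulders.

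Other established HIF targets gave a comparison outside the 10 genes. Of 28 listed genes 23 were measured, 11 were above 0 and 12 below. None was at least 2-fold higher or lower, beside 3.51% higher and 4.22% lower among all measured genes. Their median log2 ratio was -0.01, beside 0.07 over all measured genes, and its sign turned under 3 of 12 alternatives. Ero1a, an oxidase of protein folding, was the highest, with 5934 on the mutant-labelled array and 3556 in wild type (log2 ratio 0.74, with 0.29 in its other probe sets). Kdm4b, a histone demethylase, was the lowest at -0.90, followed by the collagen prolyl hydroxylase P4ha2 at -0.62 and the histone demethylase Kdm3a at -0.60. The list leaves out the glycolysis and lactate genes above, which include the HIF target Slc16a3. Of those genes 1 was at least 2-fold higher and 2 at least 2-fold lower. With shares that small over all genes, the absence of a 2-fold difference among 23 genes does not set this list apart. The activity of HIF was not tested.

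**Figure D4:**
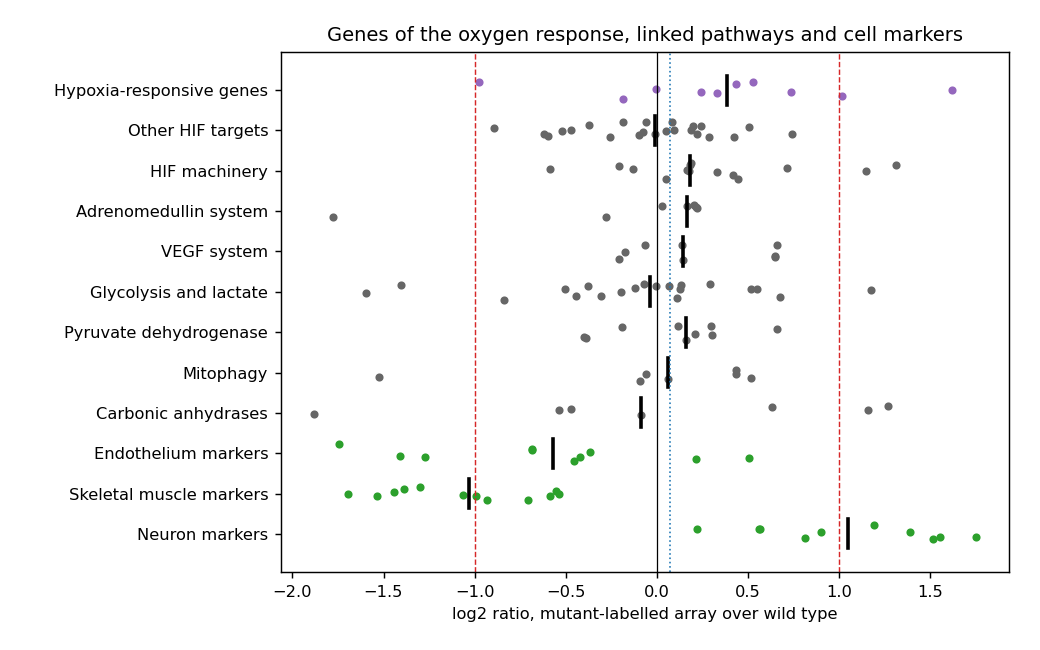
Log2 ratio (mutant-labelled array over wild type) of each measured gene in the hypoxia-responsive group (purple), linked pathway lists (grey) and cell markers (green), with a black bar at each list's median, a dotted line at the median of all measured genes (0.07) and dashed lines at 2-fold. The median of the hypoxia-responsive genes is 0.38 and that of the other HIF targets -0.01, while neuron markers (1.05) and skeletal muscle markers (-1.03) lie on opposite sides.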

How the data were processed

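The authors deposited 1 linear signal intensity per probe set and array, computed with MAS5 per the submitters' processing notes (version not given in the sources used here); biotinylated cRNA came from 6 µg of total RNA, per the labels' protocols. Both arrays had a trimmed mean of 1500.01 (2% left out at either end). Arrays were scaled to a common median over probe sets in the upper part (50th percentile or more) of each, which gave factors of 1.03 for the mutant-labelled array and 0.974 for wild type. The floor was the 40th percentile (287) and the level for a measured gene the 60th (658), both without the 64 control probe sets. Probe sets of several genes (932) or with no listed gene (9160) were left out, and no symbol changed against RefSeq. The members, gene lists and settings were chosen with earlier results of these data known. Named genes were the 10 members and the targeted genes. In each pathway list they were the 4 measured genes with the largest absolute ratio and the gene furthest the other way. Xist, Eif2s3y, Ramp2, Flt1, Kdr and Flt4 fall outside that rule and were chosen after their values were seen. A listed gene with no probe set of its own in the annotation was not analysed here. Alternatives included the deposited scaling, quantile normalization and scaling on the median signal, or on the median ratio, of 15 measured housekeeping genes, called reference genes. No test was possible with 1 array per genotype, and the number of arrays limits the precision. The steps were tested on simulated data. Python 3.11.15, numpy 2.4.6, pandas 2.3.3 and matplotlib 3.10.9 were used.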

Additional observations from a re-analysis of the deposited data

How the results depend on the processing

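The median log2 ratio of the 10 hypoxia-responsive genes stayed above 0 under the 12 alternatives in scaling, floor, probe sets and filter (0.19 to 0.60), and exceeded that of all genes by 0.17 to 0.38. Other medians ran from 0.04 to 0.40 for the HIF machinery, -0.16 to 0.21 for other HIF targets and -0.22 to 0.18 for glycolysis. Reference-gene signal scaling moved the median of all genes to 0.30 and reference-gene ratio scaling to -0.09. Hypoxia-responsive genes at least 2-fold higher numbered 1 in place of 2 with the deposited scaling, quantile normalization and reference-gene ratio scaling (Adm), without suffixes _x_at and _s_at (Bnip3, as Adm was not measured) and at 3-fold (Adm). Hypoxia-responsive genes at least 2-fold lower numbered 1 in place of 0 with those 3 scalings and at 1.5-fold (Vegfa each time). Genes at least 2-fold higher, 394 as reported, numbered 844 with reference-gene signal scaling, 236 with reference-gene ratio scaling, 257 with the floor at the 60th percentile, 237 with the filter at the 75th percentile, 1486 at 1.5-fold and 56 at 3-fold. Genes at least 2-fold lower, 474 as reported, numbered 573 with the deposited scaling, 695 with reference-gene ratio scaling and 284 with reference-gene signal scaling. They numbered 264 with that floor, 243 with that filter, 1320 at 1.5-fold and 131 at 3-fold. Lower genes made up 54.6% of those past 2-fold, against 65.0% with the deposited scaling, 25.2% with reference-gene signal scaling and 74.7% with reference-gene ratio scaling. No paired analysis was possible because each genotype had 1 array. These shifts follow from the settings themselves, and which scaling lies nearest to the RNA amounts was not tested. Signals under the floor, as in the second probe sets of Adm and Vegfa, give no ratio, and Car9 was near the level at which genes count as measured.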
